A study of Caenorhabditis elegans with 2 samples.

Results

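The genes described here encode 6 transcription factors of muscle and mesoderm in Caenorhabditis elegans: hlh-1, unc-120, hnd-1, mef-2, hlh-8 and mls-2. They were taken by name from a list of known factors, out of 19973 protein-coding genes on the nuclear chromosomes, and all 6 names were found in the annotation. Peak lists from chromatin immunoprecipitation followed by sequencing (ChIP-seq) were analysed for LIN-14, a nuclear DNA-binding protein of the heterochronic pathway whose activity early in larval life gives cells their first-stage fates. Per the labels, strain OP768 carries the unc-119(tm4063) mutation and a stably inserted transgene, wgls768, that holds lin-14::TY1::EGFP::3xFLAG with a wild-type unc-119 copy, and the tagged protein was recovered with anti-GFP. The starting material was pooled whole animals of mixed sex in the L1 stage, aged 6 hours and synchronised by starvation after bleaching, and no source used here states whether they had been fed. There were 2 biological replicates of this 1 group and no second strain, stage or treatment, so no difference between conditions can be tested. The replicates carry the same transgene and whole animals were used, so a peak shows that LIN-14 was enriched at a place and not in which tissue, and not that the gene responds.

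HLH-1, the worm counterpart of MyoD, UNC-120, a relative of serum response factor, and HND-1, a Hand-type factor, together specify body wall muscle in the embryo. MEF-2 is the worm member of the MEF2 family and, like UNC-120, a MADS-box protein, which acts in differentiated muscle, including in signalling from muscle to motor neurons. HLH-8, the counterpart of Twist, and MLS-2, a homeodomain protein of the HMX family, act in the M mesoblast, the cell that divides after hatching to give additional muscles and coelomocytes. HLH-1, HND-1 and HLH-8 are basic helix-loop-helix (bHLH) proteins, whose family binds the E-box CANNTG.

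Peaks were counted for a gene when the summit, the point of strongest enrichment, lay from 5 kb upstream of the gene to 1 kb downstream of it. The list of peaks that passed the authors' irreproducible discovery rate (IDR) threshold was used, unless another is named. Its score is the authors' measure of peak strength and not a read count, and a rank is the place of a peak by score among the 11507 of that list. The median score was 359, the lowest 147 and the highest 13288. The lists give no read counts, so the depth behind each score is unknown.

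LIN-14 peaks lay at hlh-1, unc-120 and mef-2, and none lay at hnd-1, hlh-8 or mls-2. The 3 occupied genes held 9 peaks in all, with 5 at mef-2, 3 at hlh-1 and 1 at unc-120. A peak was therefore present at 3 of the 6 genes (50%), against 45.1% of all protein-coding genes in windows drawn in the same way. The count for the group is near the background in this setting. The peaks were spread unevenly over the 6 genes. At least 3 peaks were found at 2 of the 6 genes, against 12.6% of protein-coding genes, and at least 5 at 1 of the 6, against 3.29%. Per kb of window, mef-2 had 0.458 peaks, more than 96.8% of protein-coding genes, hlh-1 had 0.301, more than 89.99%, and unc-120 had 0.114, more than 62.9%. No test was made on these counts.

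All 3 occupied genes are autosomal and all 3 genes without a peak are X-linked. Over the genome the order of the chromosomes was the other way, with a peak at 62.1% of X-linked genes and at 42.4% of autosomal genes. By protein family, both MADS-box genes had peaks, as did 1 of the 3 bHLH genes, while the homeodomain gene mls-2 had none. In a narrower promoter window, which took in 1000 bp before and 200 bp after each annotated transcript start, 2 of the 6 genes had a summit, hlh-1 and mef-2, against 23% of protein-coding genes.

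**Figure D1:**
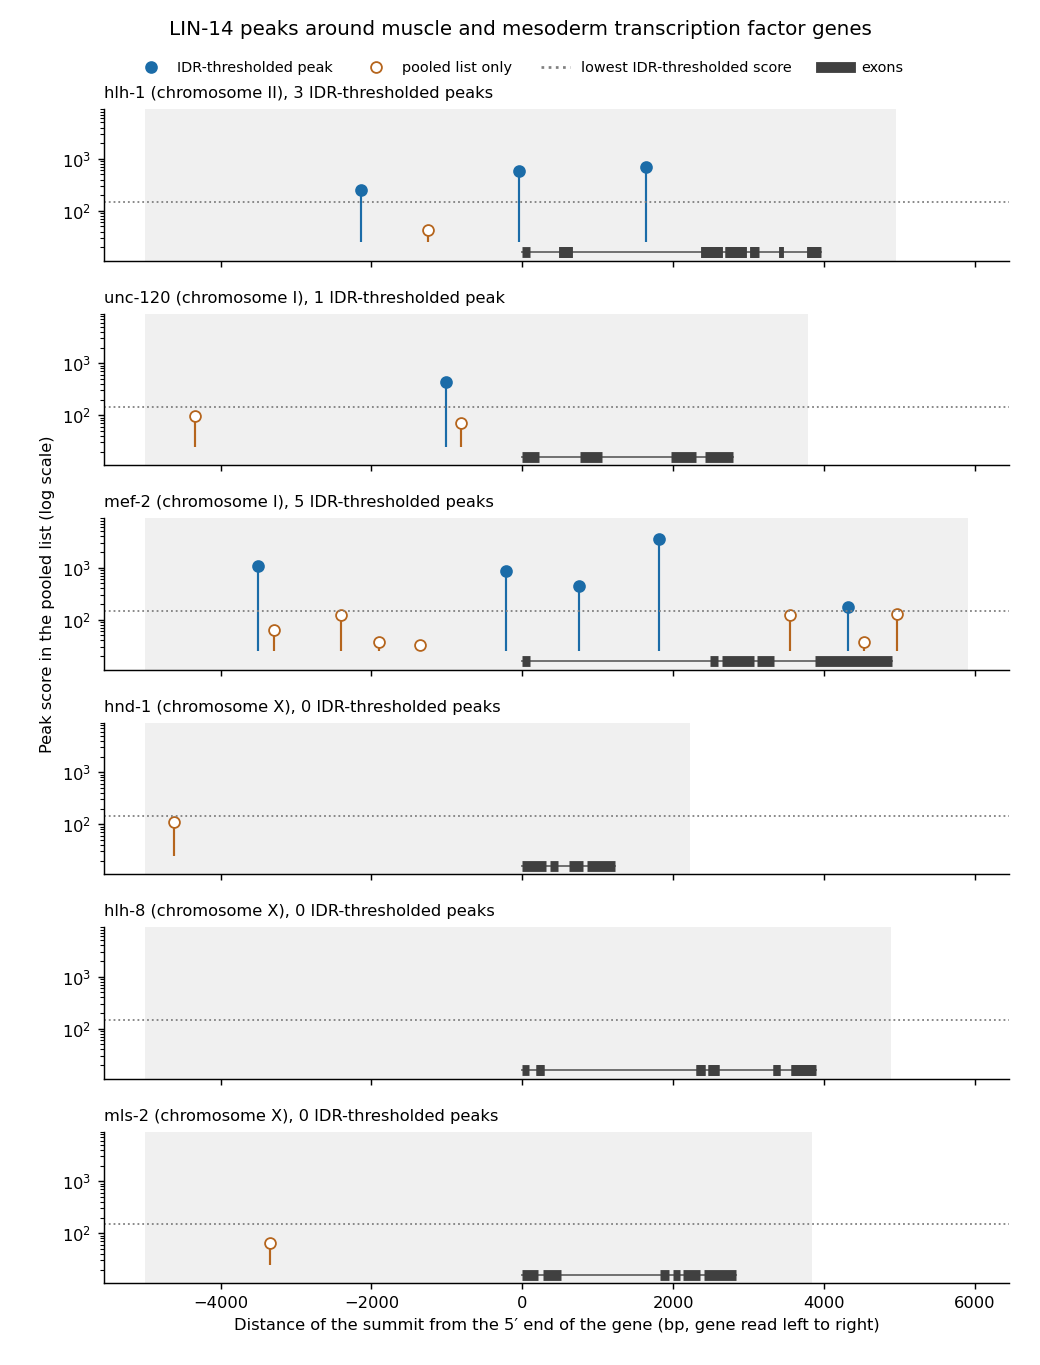
LIN-14 peaks around the 6 genes, each drawn with its 5′ end at 0 and read from left to right. The vertical axis is the score in the pooled list on a log scale, filled circles are peaks that passed the IDR threshold, open circles are peaks of the pooled list alone, and the grey field is the window searched. The strongest peak, with a score of 3641, stands in the first intron of mef-2, while the hnd-1, hlh-8 and mls-2 windows hold no filled circle.

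The MyoD-type gene hlh-1 (WBGene00001948, chromosome II, 4518574 to 4522528, plus strand, ce11) had 3 peaks, in its upstream sequence, at its 5′ end and in an intron. The sequence at these summits is printed here because E-boxes, the site class of the factor that hlh-1 itself encodes, lie in each of them. Each runs 50 bp to either side of the summit on the plus strand of ce11, as read from RefSeq's copy of WBcel235, with the second ended at the first annotated exon, and capitals mark CANNTG.
hlh-1 upstream peak, chrII:4516386-4516486: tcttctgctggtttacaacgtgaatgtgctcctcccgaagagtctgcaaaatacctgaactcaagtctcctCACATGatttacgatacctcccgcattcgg
hlh-1 5′ end peak, chrII:4518478-4518573: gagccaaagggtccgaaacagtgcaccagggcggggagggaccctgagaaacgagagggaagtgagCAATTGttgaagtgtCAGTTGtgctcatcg
hlh-1 intronic peak, chrII:4520162-4520262: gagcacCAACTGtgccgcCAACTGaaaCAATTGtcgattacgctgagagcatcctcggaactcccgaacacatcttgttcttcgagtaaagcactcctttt

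The upstream sequence holds 1 E-box, that of the 5′ end 2 and that of the intron 3. The E-boxes of the intronic peak all lie to the left of its summit. Read on both strands, the peaks at the 5′ end and in the intron hold the same forms of the E-box, since CAGTTG at the 5′ end is the reverse complement of the repeated form in the intron. An E-box on either strand lay within 50 bp of the summit in 5 of the 9 peaks at the 6 genes and in 40.6% of all peaks. The other 2 were at mef-2, in the weaker intronic peak with 2 E-boxes and in the 3′ UTR peak with 1. A match is a description of the letters and not a bound site.

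The intronic peak was the strongest of the 3 at hlh-1. Its score was 689 (replicate 1, 378; replicate 2, 306), rank 2710, with the summit at 4520212. That is 1638 bp inside the gene and 1145 bp from the nearest annotated transcript start, in the 1710 bp intron from 4519239 to 4520948. That transcript start belongs to hlh-1, and the window of the gene B0304.2 held the summit too. The summit of this intronic peak stood at the same base in replicate 1 and 4 bp away in replicate 2. The peak at the 5′ end spanned 4518409 to 4518637, with its summit 46 bp upstream of the gene's 5′ end, a score of 582 (replicate 1, 316; replicate 2, 261) and rank 3340. Its summits in the replicates lay farther upstream, by 19 bp in replicate 1 and 31 bp in replicate 2. The upstream peak, at 4516231 to 4516640, was the weakest, with a score of 256 (replicate 1, 138.7; replicate 2, 115.03) and rank 7736. Its summit lay 2138 bp upstream of hlh-1 and 303 bp past the end of cyp-23A1, a cytochrome P450 gene, so it cannot be assigned to hlh-1 by position alone. The order of the 3 peaks by score was the same in both replicates.

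Replicate 1 listed another peak in the same intron of hlh-1, with its summit at 4520413, a score of 259 and rank 4521 of the 25357 in that list. Replicate 2 and the pooled list had no summit within 100 bp of it. A replicate 2 peak with its summit at 4516630 (score 53.5) was likewise found in that list alone.

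The SRF-type gene unc-120 (WBGene00006844, chromosome I, 8460225 to 8463015, plus strand) had 1 peak, upstream and just outside the promoter window. It spanned 8459098 to 8459308, with its summit 1017 bp upstream of the gene, a score of 432 (replicate 1, 201; replicate 2, 226) and rank 4749. The summit stood at the same base in both replicates and in the pooled list. It fell within the annotated non-coding RNA genes D1081.15 and D1081.16, which overlap each other on opposite strands, and no protein-coding gene was nearer than unc-120. The peak stood alone, since the next on the upstream side lay 33346 bp from the 5′ end of unc-120 and the next on the downstream side 48428 bp beyond its 3′ end.

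Weaker peaks of the pooled list at unc-120 lay 816 bp upstream (score 71.7) and 4344 bp upstream (97.4), both below the IDR threshold and both matched in each replicate. Inside the gene, replicate 1 alone had an intronic peak with its summit at 8461376, 1151 bp from the 5′ end, with a score of 183 and rank 6420. No summit within 100 bp of it was listed in replicate 2 or in the pooled list.

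The MEF2 gene mef-2 (WBGene00003182, chromosome I, 9095957 to 9100862, plus strand) had 5 peaks that ran from far upstream to the 3′ UTR, among them the strongest at any of the 6 genes. This peak, at 9097507 to 9098150, had a score of 3641 (replicate 1, 1935; replicate 2, 1717) and rank 88 of all peaks. The strongest peak of the window was weaker, or absent, at 99.1% of protein-coding genes. Its summit lay 1814 bp inside the gene, in the first intron of 2377 bp, and it was 19th by score among the 2644 peaks of the genome that lay in introns. The score was 3.43 times that of the second strongest peak of mef-2, with a ratio of 3.56 in replicate 1 and 3.27 in replicate 2.

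The second strongest, at 9092224 to 9092667, lay 3497 bp upstream in intergenic sequence, with a score of 1063 (replicate 1, 544; replicate 2, 525) and rank 1411. The non-coding RNA gene T06D10.5 was slightly nearer to it than mef-2 (3232 bp), and mef-2 was the nearest protein-coding gene. The peak in the promoter window had its summit 222 bp upstream, a score of 865 (replicate 1, 527; replicate 2, 345) and rank 1940. These 2 peaks had close scores in replicate 1 and stood farther apart in replicate 2. A second peak in the first intron, 757 bp inside the gene, had a score of 453 (replicate 1, 219; replicate 2, 217) and rank 4517. The weakest, 4325 bp inside the gene in the 3′ UTR, scored 180 (replicate 1, 85.0; replicate 2, 91.5) at rank 10109, and the window of the neighbouring gene gei-17 held it too.

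The mef-2 window also held 7 pooled peaks below the IDR threshold. The highest of them, with a score of 128, lay within gei-17, which encodes a SUMO ligase and overlaps the end of mef-2 on the opposite strand. Neighbouring IDR-thresholded summits at mef-2 stood 979 to 3275 bp apart, and those at hlh-1 1684 and 2092 bp apart.

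At the Hand-type gene hnd-1 (WBGene00001981, chromosome X, 11684561 to 11685788, plus strand) the window held 1 pooled peak, below the threshold, with a score of 110 (replicate 1, 58.9; replicate 2, 44.4). Its summit, 4615 bp upstream of hnd-1, lay inside the neighbouring gene T04F8.7, on the opposite strand, and 30 bp from a transcript start of that gene. Replicate 2 alone listed 2 more peaks between it and hnd-1, with scores of 62.4 and 26.7. The nearest IDR-thresholded peaks were 17726 bp upstream (score 827, near noca-2) and 7487 bp downstream (score 912, near smcl-1).

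At the Twist-type gene hlh-8 (WBGene00001953, chromosome X, 8116457 to 8120351, plus strand) neither the pooled list nor replicate 1 had a peak in the window. Replicate 2 had 4 there, with scores of 21.1 to 33.7, the best of them at rank 18883 of 27170, and none was matched in replicate 1. The nearest IDR-thresholded peaks were 6704 bp upstream (score 368), closer to the 5′ end of K07E3.1, and 3126 bp downstream (score 189), at the 5′ end of C02B8.12.

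At the homeobox gene mls-2 (WBGene00003377, chromosome X, 4758804 to 4761640, minus strand) the window held 1 pooled peak, 3349 bp upstream with a score of 64.2 (replicate 1, 19.3; replicate 2, 34.3). The gene npr-1, which encodes a neuropeptide receptor, was the protein-coding gene nearest to it, at 2163 bp. Nearer still was the non-coding RNA gene C39E6.10, at 1488 bp. Replicate 1 listed 3 peaks in the window, of which 1 had a match in the pooled list and in replicate 2. The others scored 37.2 and 19.0. The nearest IDR-thresholded peaks were 23363 bp upstream and 16324 bp downstream. Among the 3 genes without a peak, mls-2 had the longest distance to a peak on each side and hlh-8 the shortest.

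The peaks at these genes were found in both replicates. All 9 had a summit within 100 bp in each replicate list, against 96.6% of all IDR-thresholded peaks, a share that is not independent of the threshold because the list was derived from the same replicates. The log2 ratio of the replicate 1 score to the replicate 2 score ran from -0.17 at unc-120 to 0.61 at the promoter peak of mef-2. Over all matched peaks its median was 0.35 with an SD of 0.41, so the 9 peaks lay between -1.27 SD (unc-120) and 0.637 SD (promoter peak of mef-2) from that median. No source used here gives the scale of the scores, and the shift between replicates cannot be read as a difference in binding. The lowest score among the peaks inside the threshold was 180 and the highest among the 12 pooled peaks left out was 128, both at mef-2. Of those 12, 7 were matched in both replicates, 4 in replicate 2 only and 1 in replicate 1 only.

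**Figure D2:**
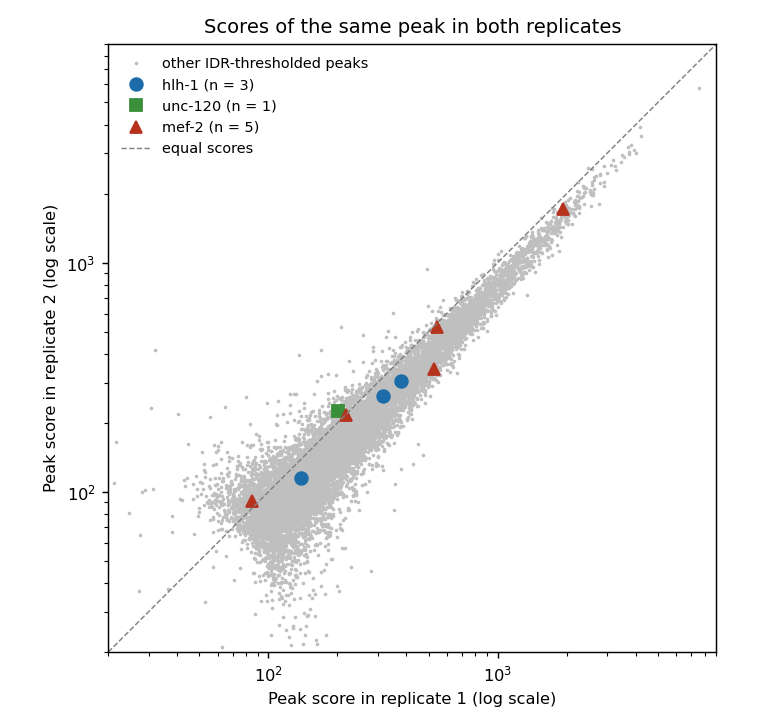
Score of each peak in replicate 1 (horizontal) and replicate 2 (vertical), both on log scales, with 1 point for each IDR-thresholded peak matched in both lists. The peaks at hlh-1, unc-120 and mef-2 lie within the cloud of other peaks, and the highest red triangle is the peak in the first intron of mef-2, with 1935 in replicate 1 and 1717 in replicate 2.

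By annotation, 2 of the 9 peaks had their summit in a promoter window, 3 in introns, 2 in intergenic sequence, 1 in the 500 bp past the end of cyp-23A1 and 1 in a 3′ UTR. These classes were drawn from protein-coding genes only. Intergenic therefore means outside protein-coding genes, and the peak at unc-120 so classed lies within non-coding RNA genes. Over all IDR-thresholded peaks, promoter windows took 40.7%, introns 23.0%, intergenic sequence 30.5%, the 500 bp past a gene end 3.60% and 3′ UTRs 0.747%. At both hlh-1 and mef-2 the strongest peak was intronic and stronger than the promoter peak (689 against 582 at hlh-1, 3641 against 865 at mef-2). The other intronic peak of mef-2, with a score of 453, was weaker than its promoter peak. Over all peaks the median score was 313 in introns and 432 in promoter windows. Those are medians of whole classes and do not compare the strongest peaks of single genes. The 9 peaks had a median score of 582, against 359 over all peaks, and 7 of them were above that median.

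Within 50 bp of the 9 summits the share of G and C ran from 35.6 to 56.4%, with a median of 47.5%, against a median of 43.6% over all peaks (middle 50% of them 38.6 to 48.5%). The sequence GGAA, on either strand, was present in 7 of 9, against 62.8% of all peaks. A set of longer sequences, searched on both strands, consisted of TGGAA, of TGGAG, of CGGAA and of CGGAG. Those that end in AA overlap with GGAA. At least 1 of the set was present in 3 of 9 peaks, against 56.9% of all peaks. Those 3 were the intronic peak of hlh-1 with CGGAA, the weaker peak in the first intron of mef-2 with TGGAA and TGGAG, and the peak in its 3′ UTR with TGGAG. The strongest peak, in the first intron of mef-2, held none of the 4 and no E-box within 50 bp. Neither the CArG box, the site class of serum response factor, nor the MEF2 box was found within 50 bp of any of the 9 summits, and the CArG box was present in 0.469% and the MEF2 box in 0.843% of all peaks.

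Other regulators of mesoderm, listed by their roles in founder cell fate and in the M lineage, were also occupied in part. A peak lay in the window of 13 of the 23 genes (56.5%, against the 45.1% background) and a promoter peak at 9 of 23 (39.1%, against 23% of all protein-coding genes). Windows in this list ran from 7297 bp (tbx-35) to 21286 bp (sem-2), against a median of 8027 bp over all protein-coding genes. A longer window can take in more peaks, and the shares were not matched for length. The median was 0.0711 peaks per kb in this list and 0 over all protein-coding genes. The strongest were at sma-9, a Schnurri-type zinc finger gene that acts in dorsoventral patterning of the M lineage (5248; 2809 in replicate 1 and 2443 in replicate 2), sys-1, which encodes a beta-catenin of Wnt signalling (3100; 1710 and 1401), the TALE homeobox gene unc-62 (2073; 1073 and 995) and skn-1, which specifies the founder of mesoderm and endoderm (2018; 1185 and 837). The X-linked sma-9 had 10 peaks in a window of 19692 bp, and it was the 1 gene of this list on the X chromosome, where the 3 factor genes without a peak also lie. No peak was found at the caudal-type gene pal-1, at ceh-51 and tbx-35, which specify mesoderm of the MS lineage, at vab-7, unc-39, fozi-1, let-381 or ceh-34, or at eya-1 and mls-1. Those last 2 were named after their values were seen, and so was hlh-2, which encodes the E-protein partner of HLH-8 and had 1 peak with a score of 193 (123 and 72.9).

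Genes that muscle uses to contract, attach and signal were mostly occupied. A peak lay at 25 of 26 (96.2%, against 45.1%) and in the promoter window of 19 of 26 (73.1%, against 23%). The median was 0.289 peaks per kb, below the values at mef-2 and hlh-1 and above that at unc-120. Windows in this list ran from 7166 bp (unc-27) to 61184 bp (unc-89), against the median of 8027 bp over all protein-coding genes. These shares were not matched for length either. The highest scores were those of unc-60, which encodes ADF/cofilin (2837), the kindlin gene unc-112 (2781), egl-19, which encodes the muscle L-type calcium channel alpha subunit (1971), and the vinculin gene deb-1 (1901). The strongest peak of mef-2 was above all of these. No summit lay in the promoter window of deb-1. In this list and in that of the other mesoderm regulators, peaks were assigned by window alone, so another gene may lie nearer. The 1 muscle gene of the 26 without a peak was arg-1, a Notch ligand gene that serves as a reporter of HLH-8 activity. High shares at muscle genes were already known when the list was drawn up, so this count is not independent evidence.

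**Figure D3:**
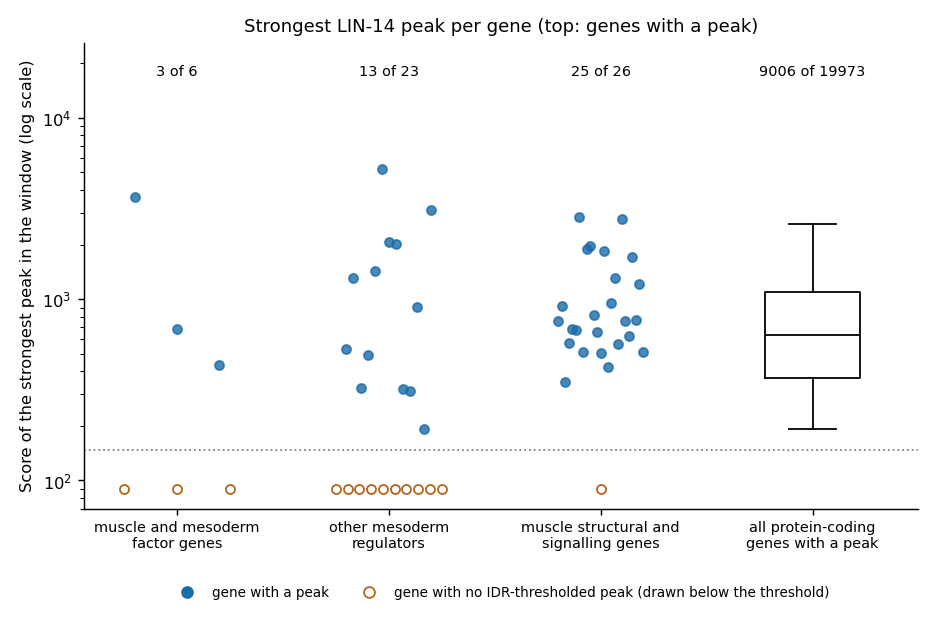
Score of the strongest peak in the window of each gene, on a log scale, for the 6 factor genes, the 23 other mesoderm regulators, the 26 muscle structural and signalling genes and all protein-coding genes with a peak (box from the lower to the upper quartile with the median, whiskers from the 5th to the 95th percentile). Open circles below the dotted line, which marks the lowest score of the list, are genes with no peak and carry no value. Genes without a peak make up 3 of 6, 10 of 23 and 1 of 26 in the lists.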

How the data were processed

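Tagged LIN-14 was mapped by ChIP-seq in 2 biological replicates of 1 group. The authors deposited 4 peak lists on ce11: 1 per replicate, 1 called on both together (pooled) and 1 IDR-thresholded list made from those 3, per the README texts deposited with them. Each was called against a control file, which was not analysed here. The aligner, peak caller and thresholds are stated in none of the sources used here. The deposited score of a peak is the authors' strength measure, on a scale that differs between lists. The deposited −log10 q-value reached its ceiling of 4.29 in 84.3% of IDR-thresholded peaks and was not used for ranking. Summits are given by the authors as offsets.

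Gene models came from Ensembl release 115 for WBcel235 and sequence from RefSeq's copy of that assembly, and every peak ended within its chromosomes. Coordinates count from 1. Counts, distances and ranks were computed with Python 3.11.15 and pandas 2.3.3, and the assignment of peaks to windows was tested on simulated peaks with known answers. A match between lists was the nearest summit within 100 bp. No p-value was computed, since there is 1 group. Members, lists and windows were chosen with earlier results of these data known. The genes named are the 6 members, up to 4 genes with the highest scores and up to 8 without a peak per list, and any gene nearer to a peak than the member. Alternatives covered the window, score threshold, merging, nearest gene, each replicate alone, the pooled list, the matching distance and the sequence window.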

Additional observations from a re-analysis of the deposited data

How the results depend on the processing

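The number of peaks at the 6 genes was 9, and it moved most with the window and the list: to 2 in the promoter window, to 14 with 10 kb upstream and to 21 in the pooled list without the IDR threshold. The share of the 6 genes with a peak, 50% in the main setting, was 33.33% in the promoter window (23% of all genes), 66.67% with 10 kb upstream (56.2% of all genes), through the peak 6704 bp from hlh-8, and 83.33% in the pooled list (51.5% of all genes). With 10 kb upstream hlh-1 had 6 peaks, of which the 3 added ones lay nearest to cyp-23A1. The share stayed at 50% in 3 settings with a lower background. That background was 33.8% with 2 kb upstream and 500 bp downstream, 34.2% with the stronger 50% of the peaks, and 27.5% with peaks given only to the nearest protein-coding 5′ end. These differences were not tested. With the equally many strongest peaks of 1 replicate, the count was 9 without replicate 1 and 10 without replicate 2. The share was 50% in both (47.1% and 46.1% of all genes). Without replicate 2, hlh-1 had 4 peaks, unc-120 had 2 and mef-2 had 4. GGAA was found at 4 of the 9 summits within 25 bp (39% of all peaks) and at 8 within 100 bp (86.6%). At least 1 of the 4 longer sequences lay at 3 of 9 within 25 bp (34.8% of all peaks). Within 100 bp the count was 7 of 9 (81.2% of all peaks). An E-box lay at 4 of 9 within 25 bp (22.8%) and at 7 of 9 within 100 bp (61.6%). Matching of all 9 peaks in both replicates held at 50 bp, 250 bp and any overlap. Among these settings, hnd-1 and mls-2 had a peak only in the pooled list, with 1 each. The precision of scores cannot be given because read depth is unknown. No paired analysis was possible because there is 1 group.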
